A study of Mus musculus with 3 samples.

Results

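The Fos and Jun families are the genes Fos, Fosb, Fosl1, Fosl2, Jun, Junb and Jund, which encode subunits of the transcription factor AP-1, and the ERα binding sites around them were examined in the mouse mammary gland. A peak was assigned to a family gene when its midpoint lay within 100 kb of any annotated transcription start site (TSS) of that gene in mm9. By this rule 27 of the 9607 peaks of replicate 1 and 18 of the 6819 peaks of replicate 2 were family peaks. They formed 28 sites. At 17 of them peaks of both replicates overlapped by at least 1 bp, out of 6250 such shared regions in the genome, and 6 of the 7 genes had at least 1 shared site, as had 38.1% of 22350 protein-coding genes.

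WT BALB/c mice (BALB/cJ in the paper) aged 6 weeks were ovariectomized, left to rest for 10 days and given 100 ng of 17β-estradiol. Their #4 mammary glands were collected 2 h later, with the tissue of 6 mice pooled for each of 2 ERα ChIP replicates (antibody sc-542 from Santa Cruz). In ChIP-seq, DNA recovered with an antibody is sequenced, and places where the reads pile up above input DNA, which skips the antibody step, are called as peaks. The 1 input library of the same tissue served both replicates. No vehicle-treated ChIP-seq library was among the samples, so the peaks show where ERα was found after the hormone and not what the hormone changed. Peak scores are p-values on a scale of 10 times the negative log10, the calling limit of 1e-08 is a score of 80, and the lists hold no read counts, so that the depth behind a score is unknown from them.

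AP-1 is a dimer of basic leucine zipper proteins. Fos family proteins cannot pair with themselves and bind DNA with a Jun partner, while Jun family proteins also pair with each other, and several of the genes are immediate early genes that growth factors and hormones switch on within minutes. ERα binds palindromic estrogen response elements (ERE) directly and can also be held at AP-1 elements through Fos and Jun proteins, and Fos is a classic estrogen-responsive gene of the uterus and of breast cancer cells.

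The sequences below are from the forward strand of the mm9 reference, which is the C57BL/6J genome and not that of the BALB/cJ mice used. They were chosen because they hold the ERE matches found in 4 of the 17 shared sites, a match that 31.1% of all shared regions had. An ERE was the palindrome GGTCANNNTGACC with at most 1 mismatch, searched on both strands of the 400 bp around the midpoint of a site. Sites are named by the signed distance of their midpoint from the nearest TSS of the gene, negative being upstream. Capitals mark the 13 bases of the match. A mismatch is given as the consensus base, its position counted from 1 at the 5′ end of the palindrome, and the base at the site. The Jund match had no mismatch at chr8:73172167-73172259, and the others had C13A (Fosb, chr7:19905115-19905207), G10C (Fosl2, chr5:32341851-32341943) and C13T (Jund, chr8:73183102-73183194).
Jund, site at -49487 bp: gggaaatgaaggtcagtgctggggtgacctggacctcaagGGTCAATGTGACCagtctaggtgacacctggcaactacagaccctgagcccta
Fosb, site at -9843 bp: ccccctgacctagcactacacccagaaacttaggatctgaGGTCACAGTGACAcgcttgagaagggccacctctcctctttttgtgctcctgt
Fosl2, site at -97050 bp: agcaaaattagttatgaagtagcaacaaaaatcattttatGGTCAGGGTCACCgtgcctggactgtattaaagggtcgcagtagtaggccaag
Jund, site at -38449 bp: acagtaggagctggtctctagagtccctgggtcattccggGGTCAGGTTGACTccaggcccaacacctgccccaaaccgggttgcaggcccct

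The highest-scoring shared sites of Fos and Fosl2 had no ERE by this definition, and their closest sequences had 2 mismatches. These were T3G and A11T in Fos (chr12:86911228-86911320) and G2A and T3A in Fosl2 (chr5:32423366-32423458).
Fos, site at 95274 bp: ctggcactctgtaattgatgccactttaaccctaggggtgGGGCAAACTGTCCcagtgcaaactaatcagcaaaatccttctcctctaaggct
Fosl2, site at -15396 bp: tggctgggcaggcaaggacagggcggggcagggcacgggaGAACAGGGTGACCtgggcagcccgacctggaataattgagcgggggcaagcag

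AP-1 elements, TGAGTCA or TGACTCA, lay in 2 shared sites (16.7% of all shared regions had one) and in 1 site of replicate 1 alone, and are in capitals. The windows shown are chr12:86911287-86911373 (Fos), chr8:87505180-87505266 (Junb) and chr5:32438187-32438273 (Fosl2). The other response element shown is the cyclic AMP response element (CRE) TGACGTCA in the replicate 1 site at the Jund start (chr8:73222623-73222652).
Fos, AP1 element of the site at 95274 bp: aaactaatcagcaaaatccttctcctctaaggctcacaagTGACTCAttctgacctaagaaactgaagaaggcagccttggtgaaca
Junb, AP1 element of the site at -2507 bp: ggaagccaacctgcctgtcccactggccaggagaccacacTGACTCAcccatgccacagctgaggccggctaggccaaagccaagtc
Fosl2, AP1 element of the site at -752 bp: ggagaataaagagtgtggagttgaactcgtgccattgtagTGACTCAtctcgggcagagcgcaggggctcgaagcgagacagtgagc
Jund, CRE of the site at -189 bp: ccccacccccaTGACGTCAacccacaatgc

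Fos, on the plus strand of chromosome 12 (chr12:86814840-86818223), encodes the founding member of its family and had the most sites within 100 kb, with 7 shared sites and 1 site in replicate 1 alone. Its place depended on the distance, since within 50 kb Fos and Jund each had 3 shared sites, and within 200 kb Fos had 9 and Jund 13. Of the protein-coding genes, 0.734% had 7 or more shared regions within 100 kb of a TSS. All 7 shared sites were intergenic, as were 53.3% of all shared regions, with 2 upstream and 5 downstream of the gene. At 4 of the 7 no gene had a TSS nearer than Fos, and the other 3 lay nearer to Jdp2, which encodes a basic leucine zipper protein that dimerizes with Jun.

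The shared Fos site nearest to a TSS was at -1445 bp (chr12:86813023-86813767), and it scored 217 in replicate 1 and 139 in replicate 2. It was thus upstream of the promoter-proximal interval used throughout, from -1000 to +400 bp of a TSS. Its closest ERE-like sequence had 2 mismatches, G1A and G10A. A forkhead element (FOXA1, TATTTAC or TGTTTAC) was found on its reverse strand and is in capitals in the 300 bp around its midpoint (chr12:86813246-86813545).
Fos, site at -1445 bp: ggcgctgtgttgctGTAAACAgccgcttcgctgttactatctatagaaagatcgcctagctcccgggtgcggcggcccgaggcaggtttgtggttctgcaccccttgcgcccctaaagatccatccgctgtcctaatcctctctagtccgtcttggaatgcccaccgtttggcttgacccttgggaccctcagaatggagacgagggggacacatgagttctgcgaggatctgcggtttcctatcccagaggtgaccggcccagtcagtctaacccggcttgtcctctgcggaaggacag

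Farther upstream, the site at -17272 bp (chr12:86797271-86797865) scored 191 in replicate 1 and 228 in replicate 2. This was the only shared site of the families with the higher score in replicate 2. The peak at -43169 bp, with a score of 115, was called in replicate 1 alone.

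Downstream of Fos, the site at 11080 bp from the nearest TSS and 12101 bp from the 5′ end of the gene (chr12:86826573-86827309) scored 672 and 511 in replicates 1 and 2. It held the 88 bp that the study's primers for ChIP followed by qPCR amplify (chr12:86826896-86826983). By that assay, with vehicle for comparison, the paper reports estradiol-dependent ERα binding downstream of Fos. The closest ERE-like sequence in these 88 bp had 3 mismatches, and capitals mark the 1 ERE half-site GGTCA and the 1 FOXA1 element in them.
Fos, amplicon in the site at 11080 bp: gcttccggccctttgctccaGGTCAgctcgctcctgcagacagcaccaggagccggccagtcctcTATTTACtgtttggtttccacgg

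The remaining shared Fos sites lay at 58040 bp and beyond. The site at 58040 bp (chr12:86873480-86874323) scored 361 and 235, and that at 82147 bp (chr12:86897727-86898289) scored 290 and 116, the largest ratio between replicates among the family sites at 2.49. The site at 95274 bp (chr12:86910651-86911620) was the strongest of the families in both replicates. It scored 2207 in replicate 1, where it ranked 81 of 9607, and 1334 in replicate 2, where it ranked 170 of 6819. A weaker shared site, with scores of 195 and 115, followed at 96647 bp (chr12:86912147-86912869), with 1373 bp between the midpoints. These sites were 29231 bp and 27858 bp from the nearest Jdp2 TSS. Of the protein-coding genes, 1.84% had a shared region within 100 kb whose lower score was at least as high as that of the strongest Fos site.

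**Figure D1:**
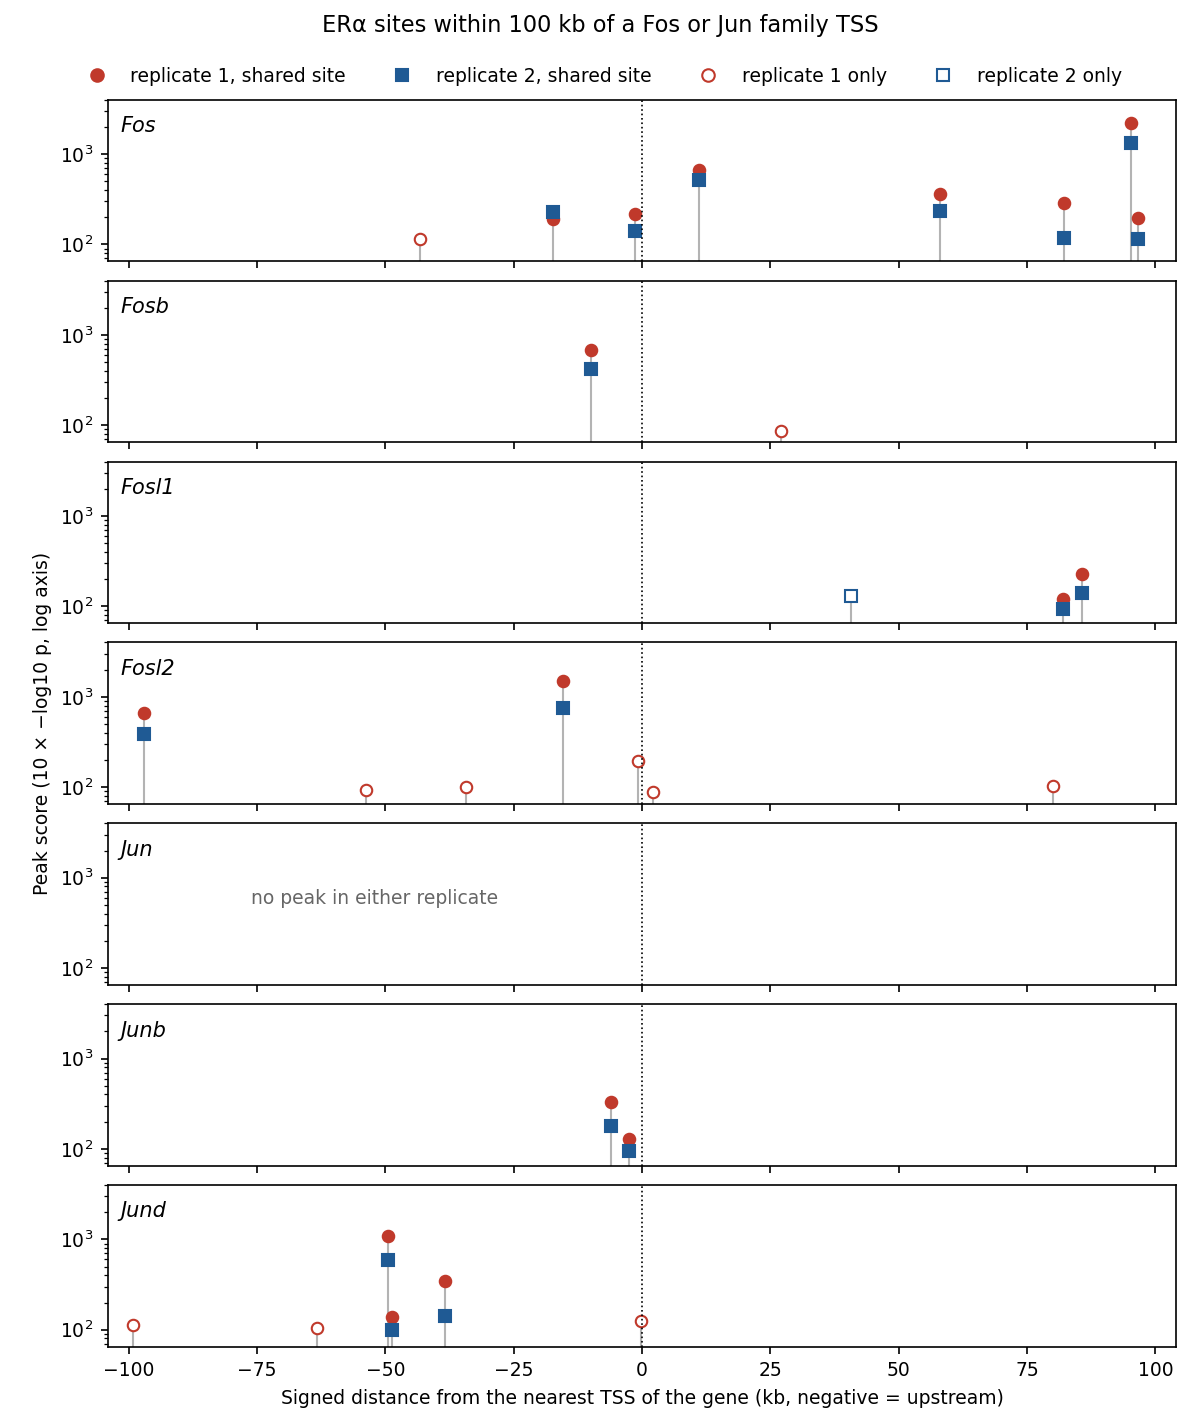
Each panel shows the ERα sites of 1 gene by the signed distance of the site midpoint from the nearest TSS of the gene in kb (negative is upstream, the dotted line is the TSS) and by peak score on a log axis. Filled symbols are shared sites (circles, replicate 1; squares, replicate 2) and open symbols are sites of 1 replicate. Fos has 7 shared sites and Jun has no peak.

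Fosb, a paralogue of Fos whose splice forms include a truncated protein, had 1 shared site. It lay at -9843 bp (chr7:19904824-19905651), was intergenic, and scored 675 in replicate 1 and 419 in replicate 2. In replicate 1 its score was close to that of the amplified Fos site, and it held an ERE with 1 mismatch where no Fos site did. The replicate 1 list had another peak at 27057 bp, with a score of 86.1, in an intron of Rtn2 and 326 bp from its TSS. It held an ERE with the mismatch T3G.

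Fosl1 encodes Fra-1, a family member that lacks the transactivation domain of Fos. It had 2 shared sites, and the stronger of them scored lower than the strongest site of each other gene with a shared site. The site at 85694 bp (chr19:5533131-5533663) scored 230 and 139 in replicates 1 and 2, and that at 82047 bp (chr19:5529354-5530146) scored 120 and 93.4. Both were intergenic and nearer to Snx32, which encodes a sorting nexin, than to Fosl1. The only family peak called in replicate 2 alone was at 40788 bp from Fosl1, with a score of 130, and its midpoint was 89 bp from a TSS of Mus81, a DNA endonuclease gene. With 15 other protein-coding genes within 100 kb, Fosl1 and Junb had the most gene-rich neighbourhoods of the families.

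Fosl2, which encodes Fra-2, combined strong shared sites with many peaks of replicate 1 alone. The intergenic site at -15396 bp (chr5:32423089-32423809) scored 1506 in replicate 1, with rank 235, and 757 in replicate 2, with rank 540. The site at -97050 bp (chr5:32341383-32342207), with scores of 663 and 390, lay in an intron of the neighbouring gene Bre, 6556 bp from a Bre TSS. Fosl2 itself was the nearest gene to neither of these 2 sites. The site at -15396 bp was slightly closer to a TSS of Gm10463, at 12092 bp.

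The other 5 Fosl2 sites were found in replicate 1 only, the most of any family gene. The site at -752 bp (chr5:32437617-32438569) lay in the promoter-proximal interval, held the AP-1 element at -615 bp and scored 196. It had the highest score of the 10 sites found in replicate 1 alone, whose median was 103. The others scored 93.3 at -53779 bp, 101 at -34327 bp, 87.6 at 2094 bp in an intron of Fosl2, and 102 at 79954 bp. That at -34327 bp held an ERE with the mismatch C13T.

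Jun, the founding member of its family, was the only gene without a peak of either replicate within 100 kb. Of the protein-coding genes, 61.9% had no shared region within that distance. The nearest shared regions lay just outside it, at -104564 bp (chr4:94823043-94823912), with scores of 277 and 306, and at -126574 bp (chr4:94845212-94845762), with scores of 222 and 136. At the former the score was higher in replicate 2.

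Junb, an immediate early gene whose protein is a weaker activator than Jun, had 2 shared sites, both upstream and intergenic. The site at -2507 bp (chr8:87504786-87505463), with the AP-1 element shown above, scored 130 and 94.2 and was near the calling limit in replicate 2. The site at -5976 bp (chr8:87508241-87508946) scored 332 and 179. It was slightly closer to a TSS of Hook2, at 5901 bp, than to that of Junb. No Junb peak was confined to 1 replicate.

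Jund, a gene expressed steadily in many tissues, had 3 shared sites, more than the other Jun family genes, and 8.89% of protein-coding genes had at least as many. The site at -49487 bp (chr8:73171860-73172442) scored 1106 in replicate 1 and 585 in replicate 2. It carried the only ERE without mismatch among the family sites. A weaker shared site, with scores of 138 and 99.8, was at -48695 bp (chr8:73172669-73173218), with a midpoint 792 bp away. The site at -38449 bp (chr8:73182875-73183504) scored 349 and 144 and lay in an intron of Pgpep1, a peptidase gene, 391 bp from a TSS of that gene. Pgpep1 was the nearest gene to all 3 sites.

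At the start of Jund itself, a peak was called in replicate 1 only (chr8:73222280-73223057), with a score of 126. Its midpoint was in a UTR exon, at -189 bp from the nearest of 2 annotated TSSs and 1030 bp from the 5′ end of the gene. It held the CRE shown above at -220 bp. The other Jund peaks of replicate 1 alone were at -99196 bp, with a score of 112 and an ERE with the mismatch A11C, in a coding exon of Ssbp4, and at -63289 bp, with a score of 105.

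Several genes had peaks on both sides of the limit of 100 kb. The peaks just inside it were that at -99196 bp of Jund and the shared sites at -97050 bp of Fosl2 and at 96647 and 95274 bp of Fos, the last being the strongest of the families. Just outside, a shared region at -100711 bp of Fosl2 (chr5:32337891-32338377) scored 116 and 101 and held an ERE with 1 mismatch. Between 100 and 200 kb the most shared regions, 10, were around Jund. Of these the strongest was at -133327 bp (chr8:73087449-73089174), nearest to Ell, with scores of 2028 and 1463. Fos had 2 shared regions at this distance, and the one at 154987 bp (chr12:86970333-86971363) scored 2286 and 1470, above the strongest Fos site within 100 kb in both replicates. Fosl1 and Junb had none.

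The number of shared sites differed among the genes, with 7 at Fos, 3 at Jund, 2 each at Fosl1, Fosl2 and Junb, 1 at Fosb and 0 at Jun. At least 2 shared regions were found for 17.9% of protein-coding genes. Over the 1.4 Mb searched around the families there were 12.1 shared sites per Mb. The mean over protein-coding genes was 3.48 per Mb, and the assembled chromosomes held 2.37 per Mb. At Fos the density was 34.8 per Mb, with 1 other protein-coding gene within 100 kb. Jun had the same number of neighbours and no site. The genes had been chosen with results for these data known, and their numbers are a description.

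**Figure D2:**
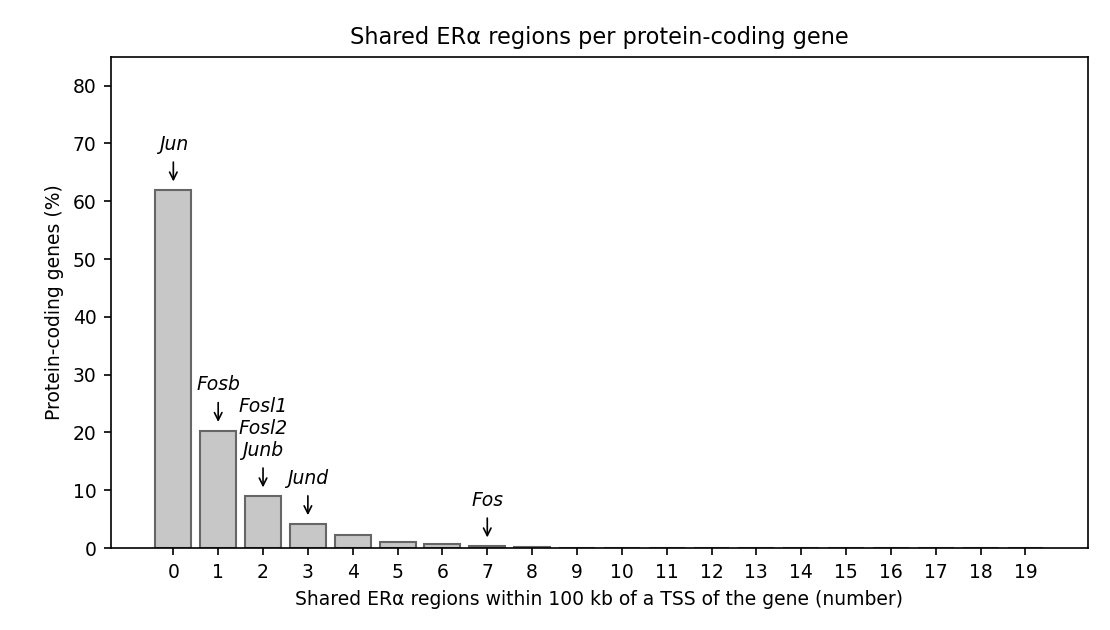
Bars give the percentage of 22350 protein-coding genes (y axis) by the number of shared ERα regions within 100 kb of a TSS (x axis), and arrows mark the Fos and Jun family genes. Jun is in the class with 0 regions, which holds 61.9% of genes, and Fos in that with 7, which holds 0.327%.

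Of the family peaks of replicate 1, 17 of 27 (63.0%, exact Clopper-Pearson 95% interval 42.4% to 80.6%) overlapped a replicate 2 peak, and among all peaks of that list 64.9% did. For replicate 2, 17 of 18 did (94.4%, 72.7% to 99.9%), and among all peaks 90.6%. Both shares were near those of the whole lists. The intervals cover counting error only, and with 2 pooled replicates the spread between animals could not be estimated. By gene, 7 of 8 peaks of replicate 1 were shared at Fos, 2 of 7 at Fosl2, 3 of 6 at Jund, 1 of 2 at Fosb, and 2 of 2 at Junb and Fosl1. These counts are too small to compare the genes.

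The median score of the shared family sites was 332 in replicate 1 (range 120 to 2207) and 179 in replicate 2 (93.4 to 1334). The medians of all shared peaks were 246 and 177, so that the family median was higher in replicate 1 and nearly equal in replicate 2. In replicate 1 the sites without a partner had lower scores, between 86.1 and 196, so that the 2 classes overlapped. The unshared replicate 1 peaks of the whole list had a median of 105.

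The replicate 1 score was higher at 16 of the 17 shared sites, and across the 6097 peaks of the genome with a single partner it was higher in 81.2%. The median ratio of the scores was 1.65 for the family sites (quartiles 1.39 and 1.86) and 1.31 for all pairs (1.07 and 1.63). Over the 17 sites the log10 scores of the replicates had a Pearson's r of 0.957 and a Spearman's rho of 0.934, and across all pairs they were 0.914 and 0.858. These are correlations over sites of the same libraries, called against the same input, and sites are not replicates. The order of the strongest sites was the same in both replicates, with Fos at 95274 bp first, then Fosl2 at -15396 bp and Jund at -49487 bp.

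**Figure D3:**
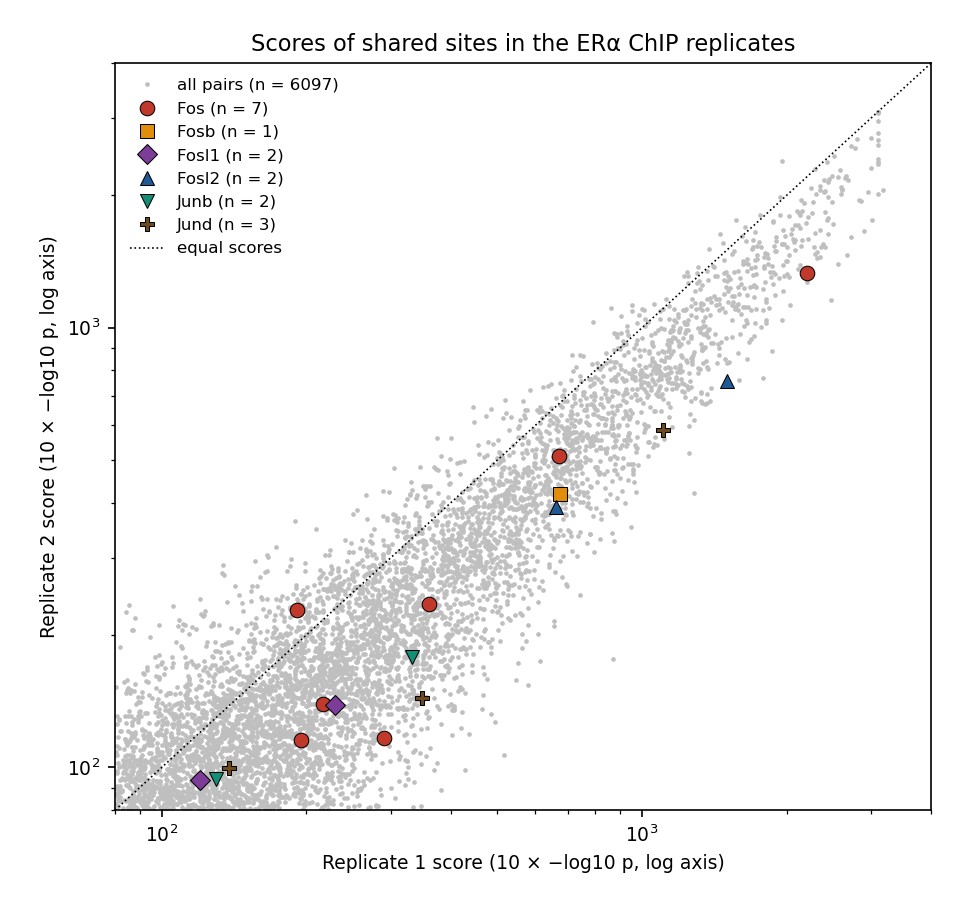
Replicate 2 score against replicate 1 score on log axes for the 17 shared family sites (symbols by gene) and for all 6097 pairs of peaks with a single partner (grey points). All family sites but 1 of Fos lie below the dotted line of equal scores.

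None of the 17 shared family sites had its midpoint from -1000 to +400 bp of a family TSS, and 1, the Jund site in Pgpep1, did so for a TSS of any gene (5.88%, interval 0.149% to 28.7%), the background being 6.57% of all shared regions. Distances to the family TSS ranged from 1445 to 97050 bp, with a median of 48695 bp. The choice of sites set their limit of 100 kb. Of the 17, 10 were upstream, and the upstream share over all shared regions was not counted. The median distance to the nearest TSS of any gene was 11429 bp, against 16857 bp for all shared regions. The choice of sites limited this distance too, while all shared regions reached up to 728229 bp, so the medians are not like for like. Of the shared sites, 15 had their midpoint outside protein-coding genes (88.2%, interval 63.6% to 98.5%), against 53.3% of all shared regions. The midpoints of 2 were in introns (11.8%, interval 1.46% to 36.4%), against 42.8%. The 15 included all 7 shared sites of Fos. They also included the Jund site at -48695 bp, where the 300 bp around the midpoint reached a UTR exon. No shared site lay within a family gene. No gene had a TSS nearer than the family gene at 6 of the 17, namely 4 sites of Fos and 1 each of Fosb and Junb.

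The windows of 400 bp around shared family sites had a median G and C content of 55.2% (range 43.5% to 67.5%), and those of all shared regions 48.0%. The amplified Fos site was the richest, at 67.5%, and the Fos site at -17272 bp the poorest. The shared regions were also wider, with a median of 721 bp against 559 bp. The part of base content in the motif counts that follow was not tested.

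An ERE with at most 1 mismatch was found in 4 of the 17 shared sites (23.5%, interval 6.81% to 49.9%), and in 31.1% of all 6243 shared regions on assembled chromosomes. Without mismatch there was 1, against 6.6%, and with at most 2 mismatches 12, against 67.3%. The share at each stringency was thus near that of all regions. The 4 matches were spread over Fosb, Fosl2 and Jund, with none in the 7 sites of Fos. Of those 7, 3 had an ERE-like sequence with 2 mismatches, and the others had 3. Of the 11 sites found in 1 replicate only, 3 held an ERE (27.3%, interval 6.02% to 61.0%). The share over all unshared peaks was not counted, so whether this is usual for such peaks is unknown. No match says only that these letters were absent from these windows.

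AP-1 elements were present in 2 of the 17 shared sites (11.8%, interval 1.46% to 36.4%), at Fos and Junb, against 16.7% of all shared regions. No shared site held a CRE, against 0.529%, or the extended half-site of SF1, CAAGGTCA, against 9.35%. FOXA1 elements were found in 5 (29.4%, interval 10.3% to 56.0%), against 14%. They were in the Fos sites at -1445 and 11080 bp and in 1 site each of Fosl1, Fosl2 and Junb. The PAX2 element GTCACG was found in 2, against 9.16%, both of them Fos sites. The SP1 element GGGCGG was found in 4, against 9.47%. Neither an ERE, an AP-1 element, a CRE nor an SF1 half-site was found in 11 of the 17 (64.7%), as in 52.0% of all shared regions.

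**Figure D4:**
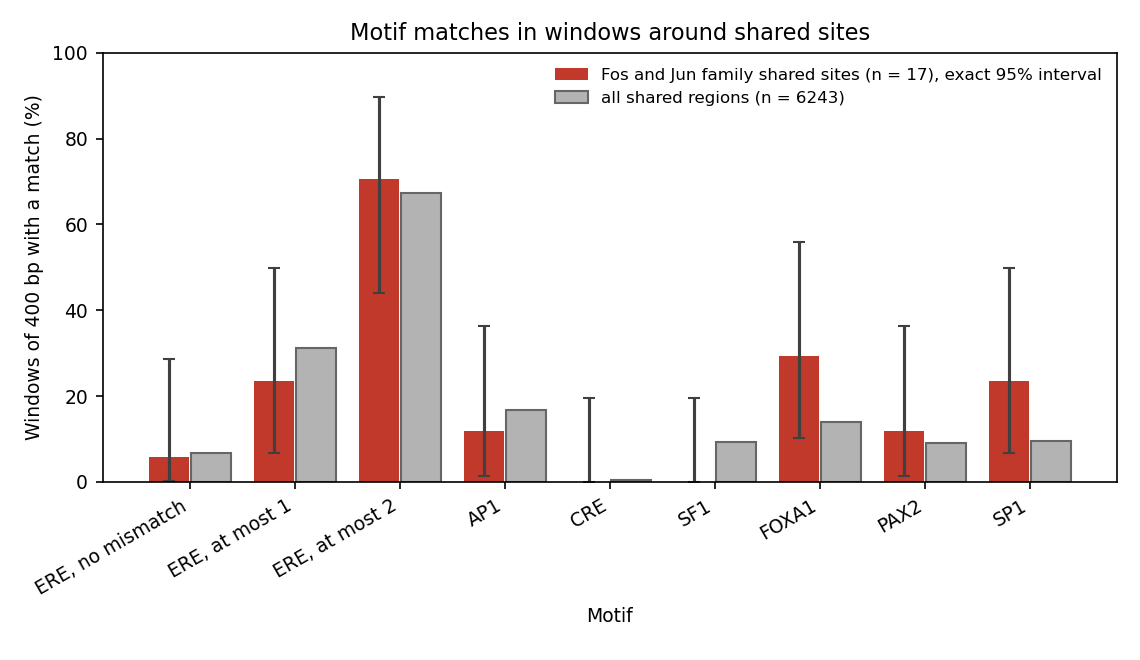
Percentage of 400 bp windows with at least 1 match to each motif for the 17 shared family sites (red, with exact 95% intervals) and all 6243 shared regions (grey). Each interval of the family sites includes the share of all regions.

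Other genes around AP-1 also had shared regions. Of 14 basic leucine zipper relatives 7 had at least 1 within 100 kb (50%, against 38.1% of protein-coding genes). Jdp2 had 6, of which 4 were also Fos sites. Atf3, a stress-induced partner of Jun, had 4, the strongest at -42158 bp with scores of 1551 and 1495. Batf, which lies in the same region of chromosome 12, had 3. Its strongest had scores of 2487 and 1928, above any of the families.

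Among 9 other immediate early genes 6 had a shared region (66.7%, against 38.1% of protein-coding genes). The orphan nuclear receptor gene Nr4a1 had 10, more than Fos, and the strongest scored 633 and 540, with an ERE without mismatch. Cyr61, which encodes a matricellular protein, had 5. Ier2 had 3, and the strongest of these, at 27782 bp, scored 3100 and 2016. In replicate 1 exactly this value of 3100 was given to 17 peaks, which are tied by it, and no family peak had it. Egr1, Egr2 and Ier3 had none.

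Of 10 genes for serum response factors and kinases that act on AP-1, 7 had a shared region (70%, against 38.1% of protein-coding genes). The strongest regions of the kinase genes Map2k1 and Map2k2 were close to their starts. That of Map2k1 lay at -336 bp, in the promoter-proximal interval, held an ERE without mismatch and scored 1048 and 855. That of Map2k2 lay at -1296 bp and scored 1176 and 730. Elk4, an ETS factor that binds with serum response factor, had 3 regions.

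The genes most like Fos were sought among the 70 protein-coding genes on other chromosomes that also had 7 shared regions within 100 kb. The measure was the difference in the sum of the log10 lower scores of these regions, which was 16.76 for Fos. The closest genes were Abcb9 with 16.69, Anxa6 with 16.67 and Triobp with 16.85.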

How the data were processed

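Reads were mapped by the authors with BWA (mm9), and MACS peaks were called for each ERα ChIP replicate on its own against input at a p-value of 1e-08. The MACS version is not given in the sources used here. The deposited score of each peak, the negative log10 of the p-value multiplied by 10, was used as it stands. Scores are not scaled between the lists. No peak ended beyond a chromosome of NCBIM37, the assembly of mm9, which served for sequence and, with GENCODE version M1 (37310 genes), for annotation. It is the C57BL/6J genome, and variants of BALB/cJ were not considered.

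Peaks with a midpoint within 100 kb of any TSS of a family gene were taken, and those overlapping between lists by at least 1 bp were shared, their intersection being the shared region. Motifs were searched in 400 bp on both strands. Overlap, TSS assignment and motif search were tested on simulated data. The 3 samples give 1 group of 2 ChIP replicates and an input that entered only through the authors' peak calling, so there was no contrast to test, and counts are set beside all peaks, genes or shared regions.

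The sites named are, for each gene, the shared site with the highest lower score, the one nearest to the TSS, any promoter-proximal site, any shared site with an ERE, AP-1 element or CRE, the amplified Fos site and the peaks on either side of 100 kb. The rest are given so that all 28 are accounted for. The strongest regions between 100 and 200 kb were chosen after their values were seen. The members and lists were chosen with earlier results of these data known. The alternatives were distances of 50 and 200 kb, 1 TSS for each gene, score limits of 100 and 200, other definitions of overlap, each replicate alone, and other motif settings. The tools were samtools 1.23.1 and pysam 0.24.0 for sequence, scipy 1.17.1 for intervals, matplotlib 3.10.9 and pandas 2.3.3 for figures, and numpy 2.4.6, run in Python 3.11.15.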

Additional observations from a re-analysis of the deposited data

How the results depend on the processing

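The number of shared sites, 17 in the text, was 10 within 50 kb and 34 within 200 kb, where Jun entered. Fos, with 7 in the text, had 3 within 50 kb, as did Jund, and 9 within 200 kb, where Jund had 13. The number of sites was 7 with scores of at least 200 in both lists, 3 of them at Fos, and 6 when a family TSS had to be the nearest of any gene, a condition met by sites of 3 genes in place of 6. With replicate 2 or replicate 1 alone there were 18 to 27 sites, 6 genes, 4 to 7 sites with an ERE and 2 to 3 with an AP-1 element. The percentage of shared replicate 2 peaks was 100% (6 of 6) under the condition on the nearest TSS. Sites with an ERE, 4 in the text, numbered 7 within 200 kb, 1 under the condition on the nearest TSS, 1 with no mismatch allowed and 12 with 2 allowed. Sites with an AP-1 element, 2 in the text, numbered 1 within 50 kb, 9 within 200 kb, 1 with scores of at least 100 or 200, 1 under the condition on the nearest TSS, and 0 in windows of 200 bp. The cause of these changes was not tested, except that fewer or more peaks or bases entered by construction. Of 62 values of these results under the alternatives, 44 stayed within 1.5 times the count or within the interval of the percentage. Most 5′ TSSs alone and reciprocal overlap of 50% changed none of them. No paired analysis was possible because no result comes from a test and the ChIP replicates have no second group to pair with.

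Counts of 17 sites give wide intervals, which cover counting error only. The lists do not show reads below the calling limit, so a site of 1 replicate may hold reads in the other, and the absence of a Jun peak says only that none passed a score of 80. Pooled tissue of several cell types was sampled 2 h after estradiol, without a vehicle library. Assignment by distance does not show which gene a site acts on. Sequence matches refer to the reference genome and depend on the mismatches allowed.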
